A study of Homo sapiens with 20 samples.

Results

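The 7 FOS and JUN genes FOS, FOSB, FOSL1, FOSL2, JUN, JUNB and JUND encode the core subunits of the transcription factor AP-1. They were taken by gene symbol from RNA-seq counts and are 7 of the 50775 gene rows. All 7 passed the filter on low counts and were among the 16698 genes tested. The data covered 5 human cancer cell lines: 94T778, a well differentiated liposarcoma line, the melanoma lines A375 and SKMEL28, and the breast cancer lines SKBR3 and AU565. Each line was measured untreated and with torkinib (PP242), an inhibitor of the active site of the kinase MTOR, with 2 libraries in each of the 10 groups. Torkinib was given for 72 h at 10 µM in 94T778, at 4 µM in A375, SKMEL28 and AU565, and at 0.8 µM in SKBR3. The labels give no culture time for untreated cells, so a difference in time in culture cannot be told apart from treatment. Per the labels' protocols the doses were picked as ones that arrest the cycle and leave viability intact. Culture medium also differed between lines (RPMI for 94T778, SKBR3 and AU565, DMEM for A375, MEM for SKMEL28), so line, medium and, outside the 4 µM lines, dose cannot be told apart. The labels do not state whether the 2 libraries of a group are separate cultures, and the p-values cover only the variation between such libraries, which could be technical. SKBR3 and AU565 share their origin and are not independent tumours, and a line holds none of the other cells of a tumour.

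AP-1 is a dimer of basic leucine zipper proteins that binds DNA at short palindromic elements. JUN proteins pair with each other or with FOS proteins, while FOS proteins need a JUN partner. FOS, FOSB, JUN and JUNB are immediate early genes, transcribed within minutes of a growth factor or stress signal through ERK and JNK kinases and the factors ELK and SRF, and their mRNAs are short-lived. FOSL1 (FRA-1) and FOSL2 (FRA-2) are later, more stable FOS-type subunits, and FOSL1 is known as a target of sustained ERK signalling in melanoma and other cancers. MTOR sits in a kinase network that sends negative feedback to growth factor receptors and ERK.

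Libraries held 4040023 to 9737903 counted reads. Levels are given as CPM, the counts of a gene scaled to a common library size with edgeR's TMM factors. Changes are log2 fold changes from edgeR's quasi-likelihood fit. Their standard errors (SE) were back-calculated as the absolute log2 change over the square root of the F statistic of edgeR's quasi-likelihood test. A change was called where the Benjamini-Hochberg adjusted p over all 16698 genes was under 0.05. 94T778, SKMEL28 and both breast lines carried their defining markers, while A375 held little of most melanocyte markers. Of the 6 chromosome 12q amplicon genes of liposarcoma, the summed level was 11752 to 11932 CPM in untreated 94T778 and 216 to 958 CPM in the other untreated lines. The 7 melanocyte markers summed to 7612 to 7980 CPM in untreated SKMEL28 but only 646 to 712 CPM in untreated A375. Their median was 494 and 516 CPM in untreated SKMEL28 but 1.03 and 0.94 CPM in untreated A375, so the A375 sum rests on a minority of them. The 8 luminal and HER2 markers summed to 17925 to 23938 CPM in the untreated breast lines against 203 to 475 CPM elsewhere. Of 5 adipocyte markers 3 had counts in untreated 94T778, where the list summed to 38.6 to 41.2 CPM with ADIPOQ and LEP at 0, and the untreated sums elsewhere were 3.08 to 103 CPM. Of 6 blood and endothelial markers 2 to 5 had counts in each untreated library, with sums of 26.4 to 149.9 CPM and HBB at 0 in all 20 libraries. These marker sums moved with treatment: the melanocyte sum was 11365 to 11559 CPM in SKMEL28 with torkinib, and the luminal sum was 14938 to 15010 CPM in SKBR3 and 12206 to 12823 CPM in AU565 with torkinib. The blood and endothelial sum was 161 to 170.2 CPM with torkinib against 26.4 to 33.0 CPM untreated in SKBR3, 97.2 to 102 against 49.9 to 51.4 CPM in AU565 and 233 to 236 against 142 to 149.9 CPM in SKMEL28. It was 89.5 to 89.7 against 70.7 to 72.0 CPM in 94T778, and lower, 19.6 to 20.8 against 63.5 to 68.3 CPM, in A375. The adipocyte sum was lower with torkinib in every line, at 4.72 to 5.78 against 18.4 to 19.2 CPM in SKBR3, 12.4 to 13.6 against 37.6 to 38.7 CPM in AU565 and 37.3 to 41.3 against 99.7 to 103 CPM in A375. In 94T778 it was 21.3 to 22.6 CPM and in SKMEL28 1.42 to 2.37 CPM. The list median in a library was at most 1.75 CPM for the blood and endothelial markers and 0.333 CPM for the adipocyte markers. These sums and their changes therefore rest on few of the listed genes. The part of these markers in the changes of FOS and JUN genes was not tested, and in bulk RNA fewer cells of a type and less RNA per cell cannot be told apart.

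Untreated libraries of SKBR3 and A375 stood apart from their partners. The untreated SKBR3 libraries differed by a chi-square of 12.2 per gene, against 1.37 to 3.37 in the other groups. Replicate 1 had more mitochondrial counts (7.63% against 4.44%) and more MALAT1 (1245 against 699.8 CPM), and it held more FOSB, at 324 against 169.97 CPM. In untreated A375 replicate 1, 22 genes of high level in 94T778 were present at a median of 2.18% of their 94T778 level, against 0.225% in replicate 2. Untreated SKBR3 replicate 2 held 20 genes of high level in SKMEL28 at a median of 0.317% of their SKMEL28 level, against 0.018% in replicate 1. Leaving out untreated A375 replicate 1, the changes in A375 were 5.45 for FOS, 3.72 for FOSB, -0.92 for FOSL1, 1.86 for JUNB and 1.16 for JUND, all still called; the values of FOSL2 and JUN, and those of SKBR3, stand beside the results of each gene.

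Torkinib changed most of the family in every line, upward for 5 members in 4 lines and downward for 5 members in SKBR3. FOS, FOSB, JUN, JUNB and JUND rose in 94T778, A375 and SKMEL28. In AU565 the risers were FOS, FOSB, FOSL2, JUNB and JUND. Of the 35 changes (7 members in 5 lines) 31 were called, 21 of them higher and 10 lower. In 94T778 5 members rose and 1 fell, where 23.8% of all genes tested were called higher and 23.8% lower (47.5% in either direction). In A375 5 rose and 2 fell, beside 18.5% and 24.3% of all genes (42.8% in either direction), and the counts were also 5 and 2 without untreated replicate 1. In SKMEL28 5 rose and 1 fell, beside 20.4% and 23.7% (44% in either direction). SKBR3 showed 1 riser, FOSL2, and 5 fallers, beside 24.6% and 26.7% (51.3% in either direction), and without untreated replicate 1 the fallers were 3. AU565 showed 5 risers and 1 faller, FOSL1, beside 26.9% and 28.6% (55.6% in either direction). The median log2 change of the 7 members was 2.01 for 94T778, 1.89 for A375, 2.33 for SKMEL28, 0.57 for AU565 and -0.42 for SKBR3. The median of all genes tested lay between -0.02 and 0 in the same comparisons. Averaged over the 5 lines, 5 members rose and FOSL1 fell, beside 28.4% and 28.1% of all genes (56.4% in either direction). In A375 43.3% of all called genes were higher, and 53.4% with upper-quartile factors; the 5 risers and 2 fallers of the family were called under both.

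**Figure D1:**
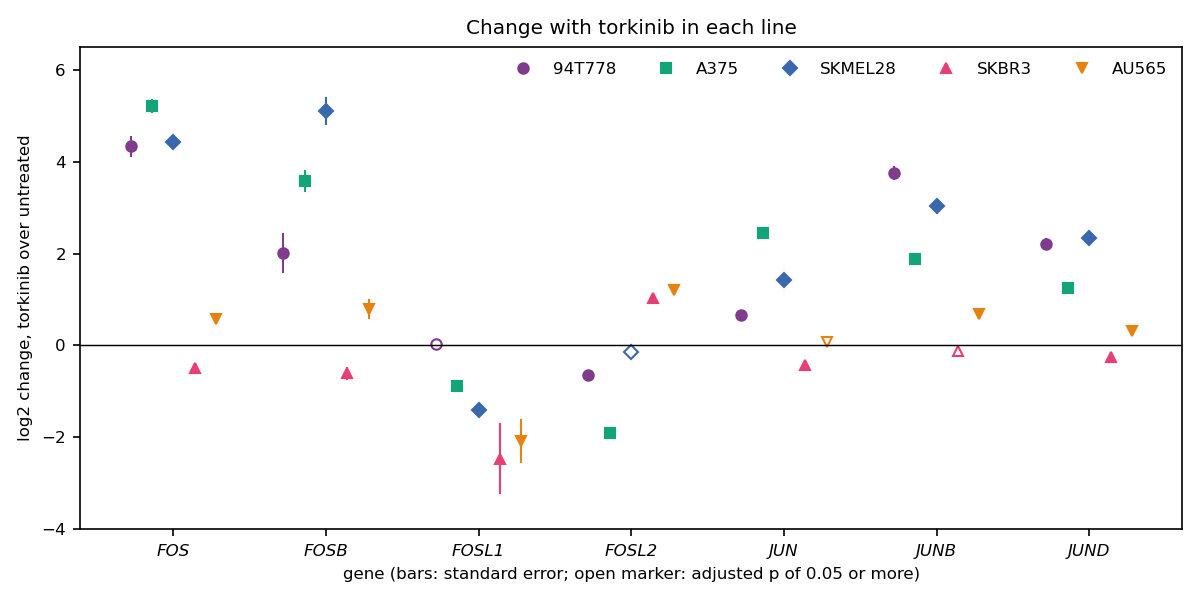
Log2 change with torkinib (y axis) of the 7 FOS and JUN genes in the 5 lines, from edgeR's quasi-likelihood fit; points are the fitted changes (open where not called) and bars their standard errors. FOS changed by 5.22 in A375 and by -0.48 in SKBR3, and FOSL1 was at or below 0.03 in each of the 5 lines.

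The 5 genes that rose together in 94T778, A375 and SKMEL28 have the following sequence before their transcription start, shown so that the elements in front of co-moving genes can be compared. Sequences are from RefSeq (GRCh38.p14), where 6 of the 7 members matched, and FOSL1 did not. Each is written 5′ to 3′ on the gene's strand, with motif matches in capitals. Shown are the bases from 250 before the RefSeq start up to the first exon annotated in GENCODE 29. For JUN, whose annotated exon covers the window, only 30 bases around the motif are shown. FOS lies at chr14:75278578-75278773 (+ strand), FOSB at chr19:45467746-45467994 (+), JUN at chr1:58784096-58784125 (-), JUNB at chr19:12791236-12791485 (+) and JUND at chr19:18281623-18281872 (-).
FOS: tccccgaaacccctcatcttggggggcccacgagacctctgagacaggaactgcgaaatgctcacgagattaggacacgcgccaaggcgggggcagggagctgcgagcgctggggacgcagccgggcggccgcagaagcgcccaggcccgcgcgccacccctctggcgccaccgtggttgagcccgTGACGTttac
FOSB: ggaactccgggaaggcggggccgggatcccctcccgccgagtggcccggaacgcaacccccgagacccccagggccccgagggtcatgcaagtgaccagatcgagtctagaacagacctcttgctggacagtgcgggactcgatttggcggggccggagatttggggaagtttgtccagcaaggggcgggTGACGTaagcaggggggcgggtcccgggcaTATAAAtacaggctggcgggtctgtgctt
JUN: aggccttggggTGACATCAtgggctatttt
JUNB: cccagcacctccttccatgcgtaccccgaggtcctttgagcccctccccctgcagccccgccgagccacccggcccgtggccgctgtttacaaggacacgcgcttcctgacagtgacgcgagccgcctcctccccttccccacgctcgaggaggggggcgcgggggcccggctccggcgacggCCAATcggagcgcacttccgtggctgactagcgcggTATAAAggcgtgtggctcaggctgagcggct
JUND: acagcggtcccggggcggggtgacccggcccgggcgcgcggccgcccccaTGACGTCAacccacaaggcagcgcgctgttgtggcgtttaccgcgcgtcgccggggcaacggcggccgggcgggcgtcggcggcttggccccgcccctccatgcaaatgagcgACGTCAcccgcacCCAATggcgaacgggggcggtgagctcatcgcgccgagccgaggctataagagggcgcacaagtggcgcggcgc

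The motif TGACGT, the core of the element bound by CREB and ATF proteins, lay 64 to 59 bases before the start in FOS and 60 to 55 in FOSB. FOSL2, not shown, held it 66 to 61 bases before its start. JUND held the whole palindrome TGACGTCA 200 to 193 bases before its start, and a further TGACGT on the minus strand, printed as ACGTCA, at 87 to 82. JUN held TGACATCA, the element through which JUN and ATF proteins are known to act on the gene, 67 to 60 bases before its start. JUN, JUNB and JUND held CCAAT, and FOS, FOSB and JUNB held TATAAA within 33 bases of the start. The CCAAT of JUN (87 to 83 bases before the start) and the TATAAA of FOS (33 to 28) lie outside the printed stretches. No match to TGANTCA, the classical AP-1 element, or to the CArG box of SRF was in the 250 bases of the 6 matched genes. Sequence beyond these 250 bases was not searched, so the genes may hold such elements elsewhere. Both strands were searched, and TGACGT lies within TGACGTCA. Among 35114 RefSeq windows of the same length, TGACGT was in 7.1%, TGACGTCA in 1.65%, TGACATCA in 2.38%, CCAAT in 32%, TATAAA in 10.7%, TGANTCA in 6.57% and the CArG box in 1.16%. A match is a description of letters and shows no binding.

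FOS, the founding FOS-type subunit, was low in 3 untreated lines and high in both untreated breast lines. In 94T778 its level was 3.93 and 1.51 CPM untreated and 59.0 and 51.2 CPM with torkinib. In A375 it was 10.0 and 7.28 CPM untreated and 350.4 and 289.6 CPM with torkinib, and in SKMEL28 12.1 and 13.98 CPM against 297 and 278 CPM. In each of these lines both treated libraries lay far above both untreated ones, by 20.2-fold, 37.2-fold and 21.7-fold. In SKBR3 the untreated libraries were at 1284 and 1017 CPM and the treated ones at 868 and 779 CPM. In AU565 they were at 381 and 387 CPM untreated and 581 and 563 CPM with torkinib. Groups overlapped in none of the 5 lines, with SKBR3 alone going down. With 2 libraries per group such separation only describes the values. How many of all genes show it was not counted, here and for the members below. The log2 changes of FOS were 4.33 (SE 0.23, edgeR adjusted p = 4.17e-18) in 94T778, 5.22 (SE 0.15, adjusted p = 1.30e-25) in A375 and 4.44 (SE 0.14, adjusted p = 4.81e-24) in SKMEL28. They were -0.48 (SE 0.10, edgeR adjusted p = 6.86e-05) in SKBR3 and 0.57 (SE 0.10, adjusted p = 5.80e-06) in AU565. Without untreated SKBR3 replicate 1 the fall was -0.32, still called, and without untreated 94T778 replicate 1 the rise in that line was 5.17.

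FOSB, a FOS-type paralog of FOS, rose in the same 4 lines. In SKMEL28 it went from 1.96 and 2.39 CPM to 72.2 and 82.0 CPM, and in A375 from 7.26 and 5.97 CPM to 83.8 and 74.2 CPM. In 94T778 it was 2.73 and 2.52 CPM untreated and 12.9 and 8.44 CPM with torkinib. AU565 moved less, from 22.1 and 18.7 CPM to 38.0 and 33.4 CPM, with no overlap between groups in any of these 4 lines. In SKBR3 the untreated libraries, at 324 and 169.97 CPM, overlapped the treated ones, at 173 and 148 CPM. The log2 changes of FOSB were 5.10 (SE 0.30, edgeR adjusted p = 1.33e-16) in SKMEL28, 3.59 (SE 0.24, adjusted p = 5.16e-15) in A375 and 2.01 (SE 0.44, adjusted p = 2.31e-04) in 94T778. In AU565 the change was 0.79 (SE 0.22, edgeR adjusted p = 2.27e-03), and in SKBR3 -0.61 (SE 0.15, adjusted p = 5.19e-04). The SKBR3 call rests on untreated replicate 1: without it the change was -0.10 (edgeR adjusted p = 0.431), and without replicate 2 it was -1.02.

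**Figure D2:**
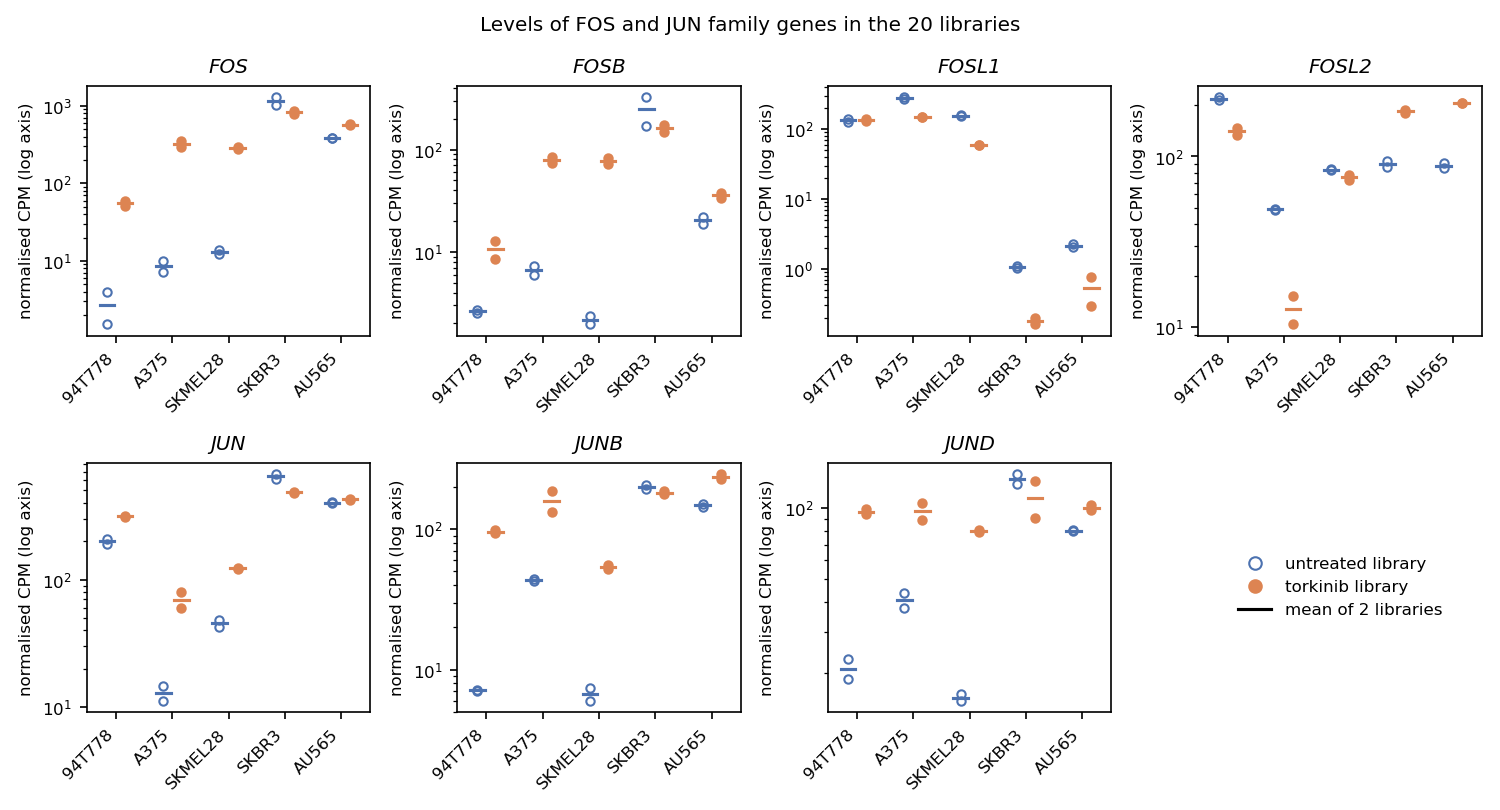
Level of each FOS and JUN gene in the 20 libraries (normalised CPM, log axis), by cell line and treatment; each point is a library and each short line the mean of 2. FOS lies between 1.51 and 13.98 CPM in untreated 94T778, A375 and SKMEL28, and between 381 and 1284 CPM in untreated AU565 and SKBR3.

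FOSL1, the FOS-type subunit tied to sustained ERK signalling, was the member that never rose. In A375 it fell from 274 and 287 CPM to 152 and 151 CPM, and in SKMEL28 from 153 and 162 CPM to 59.6 and 60.01 CPM. In 94T778 it was 142 and 126 CPM untreated and 132 and 142 CPM with torkinib, with overlapping groups. The breast lines held little FOSL1. In AU565 it was 2.23 and 2.06 CPM untreated and 0.761 and 0.293 CPM with torkinib, which is 36 counts against 6, a ratio of 4.34 (95% interval of the counting error 1.81 to 12.6). In SKBR3 it was 1.10 and 1.03 CPM against 0.199 and 0.160 CPM, 13 counts against 2, a ratio of 5.99 (1.36 to 54.7). Untreated SKBR3 replicate 2 held more counts of SKMEL28 genes than replicate 1, and FOSL1 was high in SKMEL28. The part of this in the SKBR3 counts of FOSL1 was not tested. FOSL1 changed by -0.89 (SE 0.08, edgeR adjusted p = 3.77e-12) in A375, by -1.40 (SE 0.08, adjusted p = 1.32e-16) in SKMEL28 and by 0.03 (SE 0.08, adjusted p = 0.845) in 94T778. In AU565 the fitted change was -2.08 (SE 0.49, edgeR adjusted p = 3.86e-04) and in SKBR3 -2.47 (SE 0.78, adjusted p = 0.0101), both on few counts. Without torkinib replicate 2 the SKBR3 value was -2.33 (adjusted p = 0.0857), and in AU565 it was -2.81 without torkinib replicate 1 and -1.49 without torkinib replicate 2.

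FOSL2, the other late FOS-type subunit, went opposite ways in different lines. It rose in both breast lines, from 86.6 and 93.7 CPM to 188 and 179.9 CPM in SKBR3 and from 91.3 and 85.8 CPM to 205 and 207 CPM in AU565. It fell in A375 from 48.3 and 49.4 CPM to 15.1 and 10.3 CPM, and in 94T778 from 215 and 222 CPM to 147 and 134 CPM. In these 4 lines groups did not overlap. In SKMEL28 it was 84.1 and 83.0 CPM untreated and 78.3 and 73.01 CPM with torkinib, a change of -0.14 (SE 0.09, edgeR adjusted p = 0.220). The other changes of FOSL2 were 1.02 (SE 0.09, edgeR adjusted p = 1.27e-12) in SKBR3, 1.21 (SE 0.08, adjusted p = 4.41e-15) in AU565, -1.91 (SE 0.13, adjusted p = 8.87e-15) in A375 and -0.64 (SE 0.08, adjusted p = 2.48e-08) in 94T778. Without untreated SKBR3 replicate 1 its rise there was 0.96, and without untreated A375 replicate 1 its fall there was -1.93, both still called. Its average over the lines was -0.09 (SE 0.04, edgeR adjusted p = 0.0827); without A375 torkinib replicate 1 it was -0.16 (adjusted p = 0.00859), without 94T778 torkinib replicate 1 it was -0.11 (adjusted p = 0.0499), and without SKBR3 untreated replicate 1 it was also -0.11 (adjusted p = 0.0247).

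JUN, the founding JUN-type subunit and a strong activator, rose in 3 of the 5 lines and fell in SKBR3. In A375 it went from 14.8 and 11.2 CPM to 80.0 and 59.7 CPM, in SKMEL28 from 42.6 and 48.7 CPM to 124 and 122 CPM, and in 94T778 from 207 and 192 CPM to 317 and 312 CPM. In SKBR3 it went down from 675 and 617 CPM to 479.9 and 487 CPM. In AU565 the untreated libraries were at 403 and 399 CPM and the treated ones at 422 and 428 CPM. The groups were apart in each line, though in AU565 by little. JUN changed by 2.45 (SE 0.13, edgeR adjusted p = 1.08e-17) in A375, 1.42 (SE 0.10, adjusted p = 4.03e-14) in SKMEL28 and 0.66 (SE 0.09, adjusted p = 8.43e-08) in 94T778. It changed by -0.42 (SE 0.08, edgeR adjusted p = 6.30e-05) in SKBR3, and in AU565 the value was 0.09 (SE 0.08, adjusted p = 0.417). With upper-quartile factors the AU565 value was 0.20 (adjusted p = 0.0374), and in a fit of only the 4 AU565 libraries 0.11 (adjusted p = 0.0487). Without untreated A375 replicate 1 the rise in A375 was 2.65, and without untreated SKBR3 replicate 1 the fall in SKBR3 was -0.37, both still called.

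JUNB, a JUN-type subunit known to restrain JUN and to be induced with FOS, had its steepest rise in 94T778. There it went from 7.18 and 7.06 CPM to 93.4 and 99.0 CPM, which is 13.5-fold. In SKMEL28 it went from 7.43 and 5.97 CPM to 52.2 and 55.4 CPM, in A375 from 42.7 and 44.3 CPM to 186 and 133 CPM, and in AU565 from 152 and 144 CPM to 227 and 248 CPM. SKBR3 held 206 and 193 CPM untreated and 186 and 178 CPM with torkinib. No groups overlapped, but the SKBR3 difference did not pass the test. JUNB changed by 3.75 (SE 0.16, edgeR adjusted p = 4.80e-21) in 94T778, 3.03 (SE 0.17, adjusted p = 1.04e-17) in SKMEL28, 1.89 (SE 0.11, adjusted p = 4.14e-17) in A375 and 0.68 (SE 0.09, adjusted p = 7.58e-08) in AU565. In SKBR3 the value was -0.13 (SE 0.09, edgeR adjusted p = 0.259).

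JUND, the JUN-type subunit usually present in resting cells, rose with JUNB in the same 4 lines. It went from 22.9 and 18.8 CPM to 93.9 and 99.2 CPM in 94T778, from 15.3 and 16.2 CPM to 80.8 and 79.1 CPM in SKMEL28, and from 37.9 and 43.5 CPM to 105 and 88.7 CPM in A375. In AU565 it was 79.7 and 80.6 CPM untreated and 103 and 98.3 CPM with torkinib. In SKBR3 the untreated libraries, at 139 and 126 CPM, overlapped the treated ones, at 91.0 and 129.9 CPM. JUND changed by 2.21 (SE 0.13, edgeR adjusted p = 2.61e-16) in 94T778, 2.33 (SE 0.14, adjusted p = 1.49e-16) in SKMEL28, 1.26 (SE 0.12, adjusted p = 3.46e-11) in A375 and 0.32 (SE 0.11, adjusted p = 0.0104) in AU565. The SKBR3 change of -0.25 (SE 0.11, edgeR adjusted p = 0.0452) rests on torkinib replicate 1: without it the value was -0.03 (adjusted p = 0.890), and without torkinib replicate 2 it was -0.56. Without untreated SKBR3 replicate 1 it was -0.19 (edgeR adjusted p = 0.146). The AU565 call was lost without torkinib replicate 1 (edgeR adjusted p = 0.0719) or untreated replicate 1 (adjusted p = 0.0644).

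The response of each member differed between lines. All 7 members were called in the test of any difference between the 5 line responses, where 68.4% of all genes were called. Among A375, SKMEL28 and AU565, which shared the 4 µM dose, all 7 were again called, where 52.5% of all genes were. Between the melanoma lines at that dose, FOS, FOSL1 and JUN responded higher in A375 than in SKMEL28 and the other 4 members lower, beside 13.4% of all genes called higher and 15.1% lower. The difference of log2 changes, A375 minus SKMEL28, was 0.78 (SE 0.24, edgeR adjusted p = 0.0122) for FOS, 1.03 (SE 0.17, adjusted p = 1.39e-05) for JUN and 0.51 (SE 0.11, adjusted p = 6.20e-04) for FOSL1. It was -1.77 (SE 0.16, edgeR adjusted p = 6.58e-11) for FOSL2, -1.15 (SE 0.21, adjusted p = 6.34e-05) for JUNB, -1.08 (SE 0.19, adjusted p = 2.67e-05) for JUND and -1.51 (SE 0.52, adjusted p = 0.0249) for FOSB. Without untreated A375 replicate 1 the FOSB difference was -1.38 (edgeR adjusted p = 0.0672) and the other 6 were still called.

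Compared with AU565 at the same dose, A375 responded higher in 5 members and lower in FOSL2, beside 19.3% of all genes called higher and 18.7% lower. SKMEL28 against AU565 gave the same counts, 5 higher and 1 lower, beside 18.9% and 15.9% of all genes. The difference for FOS was 4.64 (SE 0.18, edgeR adjusted p = 5.35e-21) for A375 and 3.87 (SE 0.18, adjusted p = 5.33e-19) for SKMEL28. That of FOSL2 was -3.12 (SE 0.15, edgeR adjusted p = 1.84e-18) for A375 and -1.35 (SE 0.12, adjusted p = 3.04e-11) for SKMEL28. FOSL1, which fell in all 3 lines, gave differences of 1.19 (SE 0.51, edgeR adjusted p = 0.0808) and 0.68 (SE 0.52, adjusted p = 0.395), which did not pass the test at its few AU565 counts. Without untreated A375 replicate 1 the same number of members, 5 higher and 1 lower, was called between A375 and AU565. The 3 comparisons of responses share libraries. The breast lines, at 0.8 and 4 µM, differed in 5 members, each lower in SKBR3, beside 10.8% of all genes called lower and 13% higher. The difference, SKBR3 minus AU565, was -1.06 (SE 0.14, edgeR adjusted p = 4.30e-07) for FOS, -1.40 (SE 0.26, adjusted p = 1.11e-04) for FOSB and -0.50 (SE 0.12, adjusted p = 1.71e-03) for JUN. It was -0.81 (SE 0.13, edgeR adjusted p = 1.56e-05) for JUNB and -0.58 (SE 0.15, adjusted p = 4.34e-03) for JUND. FOSL2, which rose in both lines, gave -0.19 (SE 0.12, edgeR adjusted p = 0.276), and FOSL1 -0.39 (SE 0.94, adjusted p = 0.891). Without untreated SKBR3 replicate 1 the same 5 members were called lower, with -0.88 for FOS and -0.87 for FOSB.

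Before treatment the lines already differed in every member, where 96.3% of all genes were called between the 5 untreated lines. FOS, FOSB, JUN, JUNB and JUND were highest in SKBR3 and next in AU565. FOS averaged 1150.2 ± 189 CPM (SD, n = 2) in SKBR3 and 384 ± 4.26 in AU565, and then dropped to 13.05 ± 1.31 in SKMEL28, 8.65 ± 1.94 in A375 and 2.72 ± 1.71 in 94T778. FOSB was at 247 ± 109 CPM in SKBR3, 20.4 ± 2.45 in AU565, 6.61 ± 0.91 in A375, 2.63 ± 0.15 in 94T778 and 2.17 ± 0.31 in SKMEL28. Neighbours in these orders differed by edgeR's test, except the last FOSB pair, 94T778 and SKMEL28 (adjusted p = 0.776). JUN kept another order, with 646 ± 40.7 CPM in SKBR3, 401 ± 2.90 in AU565, 199 ± 10.8 in 94T778, 45.7 ± 4.33 in SKMEL28 and 12.999 ± 2.51 in A375, all neighbours differing. JUNB was at 199.5 ± 8.82 CPM in SKBR3, 148 ± 5.30 in AU565 and 43.5 ± 1.09 in A375, with 94T778 (7.12 ± 0.08) and SKMEL28 (6.70 ± 1.03) not told apart (edgeR adjusted p = 0.704). JUND ran from 133 ± 9.48 CPM in SKBR3 over 80.1 ± 0.63 in AU565 and 40.7 ± 3.95 in A375 to 20.9 ± 2.87 in 94T778 and 15.7 ± 0.70 in SKMEL28, the last pair just missing the test (edgeR adjusted p = 0.0503).

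FOSL1 was low where those members were high. Untreated A375 held 281 ± 8.99 CPM (SD, n = 2), SKMEL28 157 ± 6.23 and 94T778 134 ± 11.6, while AU565 held 2.15 ± 0.12 and SKBR3 1.06 ± 0.05, and all neighbours differed (largest edgeR adjusted p = 0.0426, AU565 and SKBR3). FOSL2 was the most even member: 219 ± 5.32 CPM in 94T778, 90.2 ± 5.02 in SKBR3, 88.5 ± 3.88 in AU565, 83.6 ± 0.74 in SKMEL28 and 48.9 ± 0.80 in A375. Neither SKBR3 and AU565 (edgeR adjusted p = 0.863) nor AU565 and SKMEL28 (adjusted p = 0.383) differed by the test. Over the 10 pairs of untreated lines and 7 members, 64 of 70 comparisons were called. Without untreated SKBR3 replicate 1, 25 of the 28 comparisons with SKBR3 were called, against 26 with it; the pair lost was FOSL1 in SKBR3 and AU565 (edgeR adjusted p = 0.109). Without untreated A375 replicate 1, 27 of the 28 with A375 were called, against 28; the pair lost was FOSB in 94T778 and A375 (adjusted p = 0.0535). The share of all genes called was lowest between SKBR3 and AU565 (51.2%). It was 64.4% between 94T778 and SKMEL28, 67.1% between 94T778 and A375 and 68.6% between A375 and SKMEL28. For SKBR3 it was 75.9% against SKMEL28, 76.6% against 94T778 and 77.3% against A375, and for AU565 75.4%, 74.6% and 76.3% in the same order.

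The make-up of the family was compared per length, as CPM per kilobase of exon, since the members' exons differ from 1.82 kb in JUNB to 6.794 kb in FOSL2. Exon lengths were taken from GENCODE 29 (GRCh38), in which no other gene's exon overlapped a member. Untreated A375 and SKMEL28 were dominated by FOSL1, which made up 93.1% ± 0.61 (SD, n = 2) and 83.3% ± 0.23 of the summed level of the 4 FOS-type genes. With torkinib this share was 39.8% ± 3.06 in A375 and 20.9% ± 0.58 in SKMEL28. FOS rose from 2.95 to 109 CPM per kb in A375 and from 4.44 to 97.9 in SKMEL28. FOSL1 itself fell from 152 to 82.4 CPM per kb in A375 and from 85.4 to 32.5 in SKMEL28. In 94T778 FOSL1 held 68.4% ± 1.98 of the FOS-type level untreated and 64.3% ± 3.27 with torkinib. In the breast lines it was under 1% in each group, at 0.130% ± 0.018 and 0.786% ± 0.047 untreated. The libraries of each group were close to each other and far from the other treatment in A375 and SKMEL28, but not in 94T778.

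Summed over the 7 members, the level went from 178 ± 10.7 to 309 ± 3.21 CPM per kb in 94T778, from 213 ± 6.19 to 367 ± 47.5 in A375, from 128 ± 4.82 to 263 ± 3.33 in SKMEL28 and from 386 ± 3.02 to 536 ± 3.05 in AU565 (all SD, n = 2). In SKBR3 it went from 813 ± 105 to 632 ± 12.6 CPM per kb. These sums were not tested. Untreated replicate 2 alone gave a sum of 739 CPM per kb in SKBR3 and 218 CPM per kb in A375. FOS-type genes made up 59.9% ± 0.18 of the untreated sum in 94T778, 76.8% ± 0.27 in A375 and 80.4% ± 0.07 in SKMEL28, and 37.4% ± 0.41, 56.7% ± 2.80 and 59.2% ± 0.61 with torkinib. The JUN-type share was therefore larger in both treated libraries of each of these 3 lines. In SKBR3 the FOS-type share was 55.1% ± 3.14 untreated and 53.2% ± 2.99 with torkinib, with overlapping libraries, and in AU565 it was 38.4% ± 0.40 and 43.2% ± 1.16. Treated 94T778, A375 and SKMEL28 held less of the family than untreated AU565 in all libraries but 1, treated A375 replicate 1 at 401 CPM per kb.

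**Figure D3:**
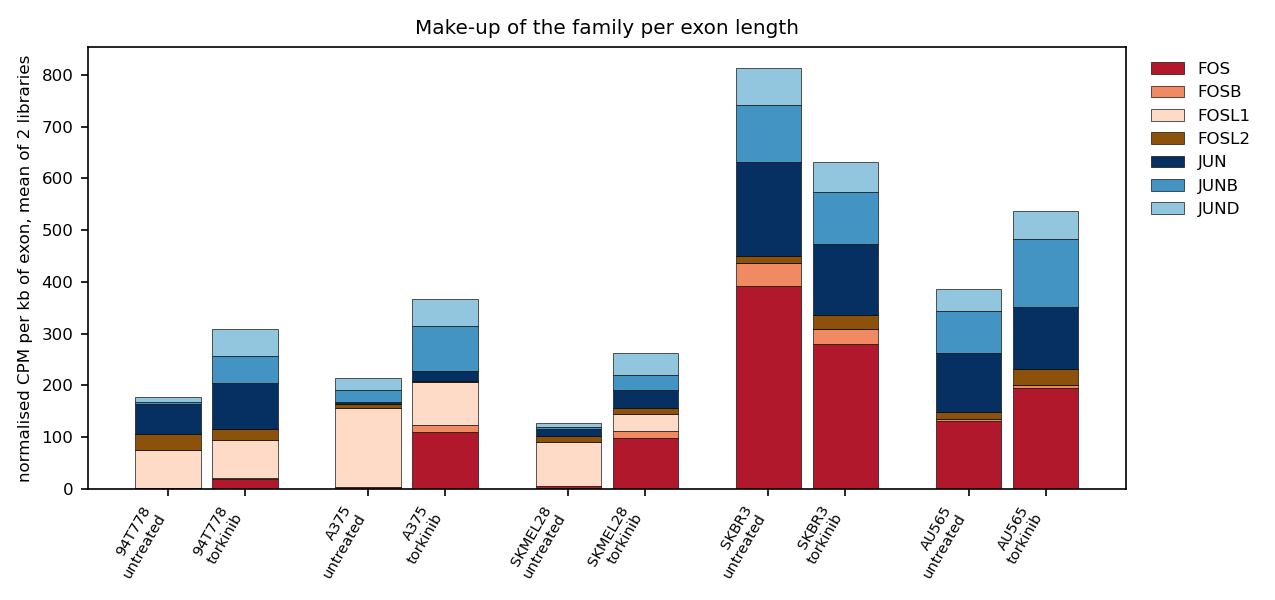
Summed level of the 7 members in each group (CPM per kilobase of exon, mean of 2 libraries), split by member. FOSL1 makes up most of the FOS-type level in untreated A375 (93.1%) and SKMEL28 (83.3%), and FOS takes most of it in both breast lines.

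Other parts of the pathway were read from gene lists, each counted beside the 28.4% of all genes called higher and 28.1% called lower on average over the lines. Of the 12 other leucine zipper proteins that pair with FOS or JUN, 5 rose and 2 fell on average, with a median change of 0.24. MAFG, a small MAF protein, rose by 0.93 on the log2 scale (SE 0.05, edgeR adjusted p = 1.84e-18) and was called higher in each of the 5 lines, as was ATF7 at 0.54 on average (SE 0.05). MAFF, an inducible small MAF, averaged 0.79 (SE 0.06), with 2.28 in 94T778, 1.12 in SKMEL28 and 0.58 in AU565, and with 0.02 in A375 and -0.05 in SKBR3, both not called. JDP2, which pairs with JUN and represses AP-1 sites, fell by 2.09 on average (SE 0.14, edgeR adjusted p = 1.50e-15). Its fall was steepest in A375, where 180 counts in the untreated libraries stood against 1 in the treated ones, a ratio of 128 (95% interval of the counting error 22.6 to 5066), and in AU565 its value was 0.29, not called.

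Of the 21 upstream kinases and transcription factors, 6 rose and 10 fell on average, with a median of -0.16. RPS6KA1 (RSK1), a kinase activated by ERK, fell in all 5 lines and by 0.75 on average (SE 0.05, edgeR adjusted p = 5.87e-17). MAPK3, which encodes ERK1, fell by 0.61 on average (SE 0.05, edgeR adjusted p = 1.00e-12) and was called lower in each line except SKMEL28 (-0.21, not called). MAP2K2, the kinase above it, fell by 0.34 on average, with calls in SKBR3 (-0.84) and AU565 (-0.80). MKL2, a coactivator of SRF, rose by 0.55 on average but fell in SKMEL28 (-0.29).

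Among 19 other immediate early genes 10 rose and 2 fell on average, with a median of 0.32. The per-line counts were 11 higher and 2 lower in 94T778, beside 23.8% and 23.8% of all genes. In A375 they were 10 and 4, beside 18.5% and 24.3%, and in SKMEL28 13 and 4, beside 20.4% and 23.7%. SKBR3 had 4 and 9, beside 24.6% and 26.7%, and AU565 had 10 and 5, beside 26.9% and 28.6%. SKBR3 was the line with more fallers than risers in this list. EGR1, a zinc finger factor induced by ERK through SRF, was at 21.5 and 16.8 CPM in untreated 94T778 and 262 and 223 CPM with torkinib. In SKMEL28 EGR1 went from 17.0 and 16.6 CPM to 530.1 and 567 CPM, while in SKBR3 it was 573 and 574 CPM untreated and 637 and 649 CPM with torkinib. Its log2 changes were 5.03 in SKMEL28, 3.66 in 94T778, 1.91 in A375, 1.28 in AU565 and 0.17, not called, in SKBR3 (average 2.41, SE 0.05, edgeR adjusted p = 5.64e-32). IER2, a nuclear immediate early protein, averaged 1.15 (SE 0.04) and was called higher in 4 lines and lower in SKBR3 (-0.28). DUSP1, a phosphatase that switches off MAP kinases, averaged 1.34 (SE 0.06) with the same signs, including -0.23 in SKBR3, also called. ZFP36, which destabilises short-lived mRNAs such as FOS, averaged 1.32 (SE 0.08) and was called higher in 4 lines, with 0.15, not called, in SKBR3.

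Of 26 genes known as AP-1 targets, 22 were tested (MMP3, MMP10, AREG and EREG were filtered out as low), and on average 2 rose and 10 fell, with a median of -0.53. In A375 FOS, FOSB, JUN, JUNB and JUND rose, while FOSL1 (-0.89) and FOSL2 (-1.91) fell. No target rose there and 14 of 22 fell, beside 18.5% of all genes called higher and 24.3% lower. In 94T778 9 rose and 6 fell, beside 23.8% and 23.8% of all genes, and in SKMEL28 2 and 9, beside 20.4% and 23.7%. SKBR3 had 3 and 8, beside 24.6% and 26.7%, and AU565 had 5 and 8, beside 26.9% and 28.6%. PLAUR, the urokinase receptor, fell by 1.24 on average (SE 0.08, edgeR adjusted p = 5.45e-16), with -2.01 in A375, -2.22 in AU565 and 0.04, not called, in 94T778. HMGA1, a chromatin protein, fell by 0.92 (SE 0.04) but rose in SKMEL28 (0.24), and HMOX1, heme oxygenase, fell by 1.35 (SE 0.08). ITGA2, a collagen receptor subunit, rose by 0.88 on average (SE 0.05), from 3.80 in SKBR3 to -2.01 in SKMEL28. Of the 14 feedback and output genes of ERK, 9 rose and 2 fell on average, with a median of 0.51. The list had 11 risers and no faller in 94T778 and 9 and none in AU565, but 5 and 6 in A375, 4 and 4 in SKMEL28 and 7 and 3 in SKBR3. The shares of all genes in each line are those given above for the targets. DUSP4, an ERK phosphatase, rose in all 5 lines and by 0.53 on average (SE 0.03). SPRY1, a Sprouty inhibitor of receptor signalling, averaged 1.02 (SE 0.08), PHLDA1 0.75 (SE 0.05) and SPRED1 0.68 (SE 0.05), with falls of PHLDA1 in A375 (-0.33) and of SPRED1 in SKMEL28 (-0.28).

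**Figure D4:**
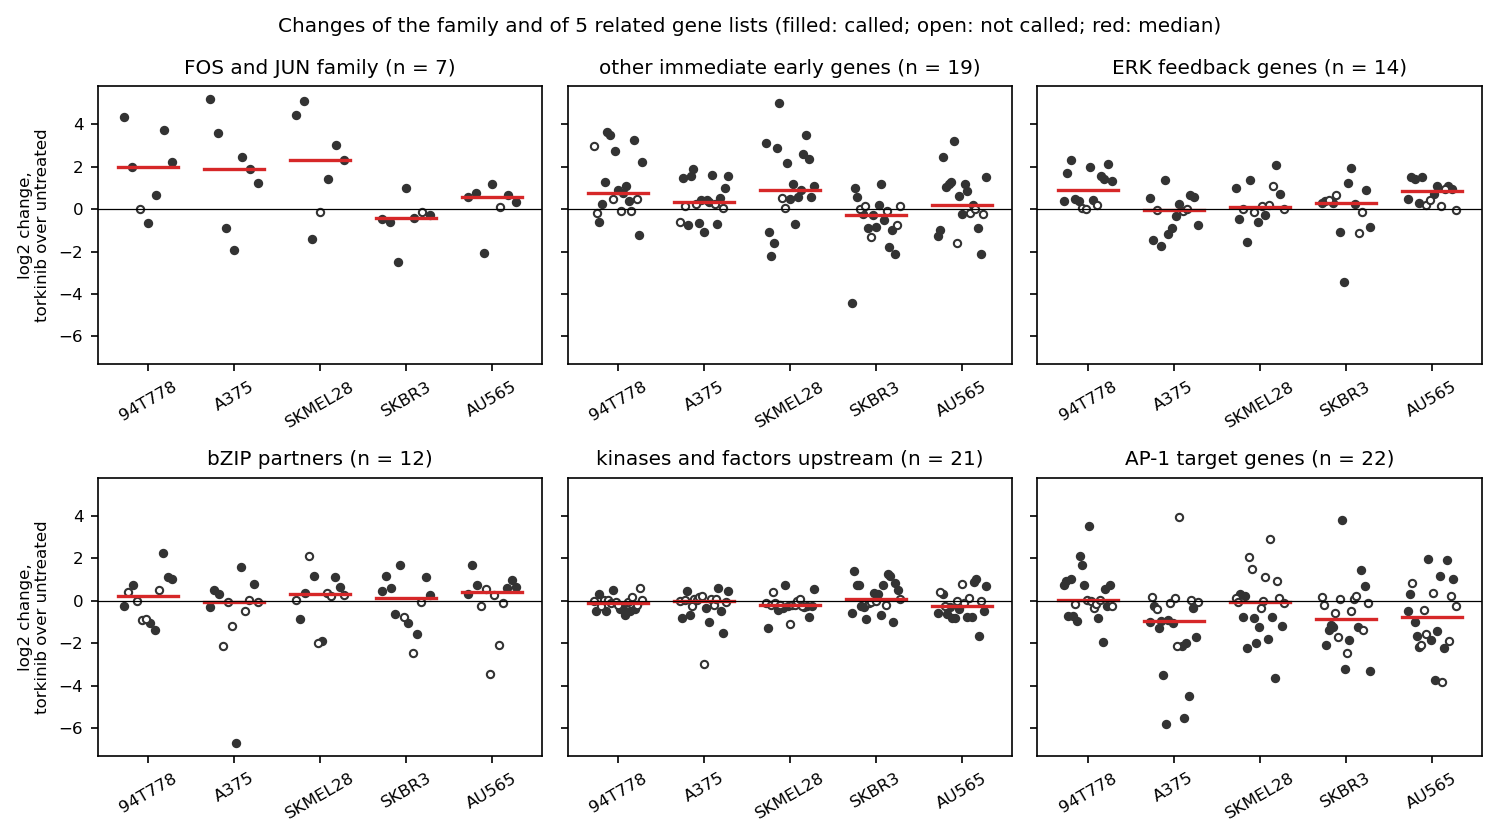
Log2 change with torkinib of the members of each pathway list in the 5 lines; each point is a tested gene (open where not called) and the red line is the list's median. The medians of the immediate early list are 0.89 in SKMEL28, 0.76 in 94T778, 0.33 in A375, 0.21 in AU565 and -0.28 in SKBR3.

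Across the 10 group means of log2 CPM the members fell into blocks. JUNB and JUND were alike at r = 0.962, FOS and FOSB at 0.913, FOS and JUND at 0.880 and FOS and JUNB at 0.879, while FOSL1 ran opposite to FOS (-0.767) and JUN (-0.773). FOSL2 had values from -0.443 (with FOSL1) to 0.566 (with JUN). The points share lines and libraries, so these are descriptions without a test. Among 14911 genes, those most like FOS were C19orf60 (r = 0.973), FBRSL1 (0.958) and MYST1 (0.954), and those most like FOSB were RP11-565J7.3 (0.961), RP4-706A16.3 (0.957) and TMPRSS9 (0.946). FOSL1 had its closest patterns in FMNL3 (0.992), MTERFD1 (0.990) and OXCT1 (0.990), and FOSL2 in LMCD1 (0.947), FOXP1 (0.941) and LYPD6 (0.936). JUN was most like AC006978.6 (0.951), SNORA66.1 (0.950) and SOCS1 (0.945). JUNB was most like CTU1 (0.973), DALRD3 (0.969) and IER2 (0.966), and JUND like KLF2 (0.962), JUNB (0.962) and OVCA2 (0.959). IER2 is itself an immediate early gene, and KLF2 is a zinc finger factor.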

How the data were processed

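RNA-seq of total RNA was deposited by the authors as whole-number counts per gene symbol, 1 file per library, with no normalization. The submitters' processing notes name the build GRCh37 (hg19) and the tools limma 3.34.9, HTSeq 0.6.1 and HISAT2 2.04. What each tool did, which annotation was counted and whether strand was used is not given in the sources used here. Counter summary lines, which name no gene, stayed out; counted reads were 47.8 to 62.4% of all reads, and the depth was 4040023 to 9737903 per library. Reads of an antisense gene cannot be told apart from those of a member.

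Counts were fitted in R 4.3.3 with edgeR 4.0.16: filterByExpr, TMM factors, 1 model of 10 group means over 20 libraries, quasi-likelihood tests, and Benjamini-Hochberg adjustment over 16698 genes at 0.05 (common biological coefficient of variation 0.0547). The fit was tested on simulated counts. Alternatives were RLE and upper-quartile factors, no filter, DESeq2 1.42.0, limma-voom (limma 3.58.1), the replicate number as a block, only the 4 libraries of a line, and leaving out each library in turn; response differences and untreated pairs without a library that stood apart were added after seeing the data. Level comparisons between genes used CPM per kb of exon (GENCODE 29 basic, GRCh38), which may differ from the authors' gene models. Intervals of count ratios are exact binomial at 95% and cover counting error only. Named genes were the 7 members, the 4 genes of each of 5 pathway lists with the smallest p of the average with counts in each group, and the 3 genes most like each member with a mean of at least 1 CPM. The members and lists were chosen with earlier results of these data known.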

Additional observations from a re-analysis of the deposited data

Results flagged for a closer look

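The response to torkinib differed between lines for all 7 FOS and JUN genes by a test of the difference itself (edgeR's interaction test, adjusted over 16698 genes). Over the 5 lines, whose doses differ, the adjusted p was 2.91e-25 for FOS, 8.79e-17 for FOSB, 6.88e-12 for FOSL1, 1.03e-19 for FOSL2, 1.66e-17 for JUN, 1.18e-19 for JUNB and 4.52e-16 for JUND. FOS ran from 5.22 on the log2 scale in A375 to -0.48 in SKBR3, and FOSB from 5.10 in SKMEL28 to -0.61 in SKBR3. Over A375, SKMEL28 and AU565, all at 4 µM, it was 4.72e-22 for FOS, 6.62e-11 for FOSB, 4.22e-04 for FOSL1, 4.72e-18 for FOSL2, 8.59e-15 for JUN, 1.83e-12 for JUNB and 5.36e-11 for JUND. FOSL2 is the member whose called changes have opposite signs at this dose, -1.91 in A375 and 1.21 in AU565. Of all genes, 68.4% were called in the first test and 52.5% in the second.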

How the results depend on the processing

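Of 384 recomputed changes of a member in a line, 369 kept their call, 13 lost it, 2 gained one and 0 reversed. The lost calls were FOSB, FOSL1 and JUND in SKBR3 and JUND in AU565; the gained ones were JUN in AU565. The count of members lower in SKBR3, 5, was 3 with DESeq2 and 2 in a fit of only the 4 SKBR3 libraries, where fewer samples and genes enter; leaving out 1 library gave 3 to 5. FOSB in SKBR3 was -0.59 with DESeq2 (adjusted p = 0.0827) and -0.60 with only the 4 libraries (adjusted p = 0.0654). JUND in SKBR3 had an adjusted p of 0.0507 with limma-voom, 0.0708 with RLE factors, 0.0732 with upper-quartile factors, 0.147 with DESeq2 and 0.228 with only the 4 libraries; the cause was not tested. Averaged over the lines, 1 member was lower, and 1 to 2 when 1 library was left out, the second being FOSL2. With the replicate number as a block, members higher and lower were 5 and 1 in 94T778, 5 and 2 in A375, 5 and 1 in SKMEL28, 1 and 5 in SKBR3 and 5 and 1 in AU565, as without it, and the block changed no call of a member. Same-numbered libraries deviated together with a correlation of -0.06 to 0.08. Counting error weakens such a correlation, so with 2 libraries per group it cannot decide whether the numbers pair them. The median change of all genes ran from -0.05 to 0.09 over all settings. Depth limits FOSL1 in the breast lines, at 2 to 36 counts per group.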
